A study of Mus musculus with 6 samples.

Results

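The CXC chemokine genes Cxcl1, Cxcl2, Cxcl9, Cxcl10, Cxcl12, Cxcl13, Cxcl14 and Cxcl16 were taken by symbol from an expression table of 55298 Ensembl gene identifiers. Where a symbol had several identifiers, the one with the highest mean was to be used. All 8 genes were found, and all 8 were among the 18161 genes with a mean value of at least 3 that entered the test. The values are regularised log2 counts (rlog), a scale on which a difference of 1 is a 2-fold difference and on which the values of weakly counted genes are pulled towards their mean. A fold change on this scale therefore understates the change of a low gene.

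The RNA came from brain cells captured with magnetic beads that carry an antibody to O4, a sulfatide antigen of late oligodendrocyte precursors and oligodendrocytes, and the cells were not cultured. All mice were of a strain labelled c56Bl/6j. The mice of 1 group received the peptide MOG 35-55 of myelin oligodendrocyte glycoprotein, which induces experimental autoimmune encephalomyelitis (EAE), and the controls received ovalbumin (OVA). Animals were killed at the peak of disease. EAE 1, EAE 2 and EAE 3 were pools of 2 mice each, OVA 2 was a pool of 2 mice, and OVA 1 and OVA 3 were 1 mouse each, so that 6 EAE and 4 OVA mice gave 3 samples a group. The p-values measure the spread between these samples. The table holds no counts, so the depth of each library is unknown.

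CXC chemokines are small secreted proteins, named for a pair of cysteines with another residue between them, that bind G protein-coupled receptors and direct the migration of leukocytes. CXCL9 and CXCL10 are induced by interferons and bind CXCR3 on activated T cells and natural killer cells, whereas CXCL1 and CXCL2 bind CXCR2 and attract neutrophils. CXCL16 is made as a membrane-anchored protein that binds CXCR6, CXCL13 binds CXCR5 and attracts B cells, and CXCL12 is a constitutive ligand of CXCR4 and of the scavenging receptor ACKR3. CXCL14 is a conserved chemokine that many tissues express at rest. In the inflamed central nervous system, members of the family are known as products of glia, endothelium and infiltrating myeloid cells.

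The stretches before the transcription starts of 4 members are printed because the interferon-induced neighbours Cxcl9 and Cxcl10 rose in the same samples, whereas the neutrophil-attracting neighbours Cxcl1 and Cxcl2 gave unlike values. They are the 250 bases before the RefSeq start in GRCm38.p6, 5′ to 3′ on the strand of the gene, at chr5:92328080-92328329 (minus strand) for Cxcl9, chr5:92348890-92349139 (minus strand) for Cxcl10, chr5:90890995-90891244 (plus strand) for Cxcl1 and chr5:90903649-90903898 (plus strand) for Cxcl2. Capitals mark matches, on either strand, to an interferon-stimulated response element (ISRE, searched as GAAANNGAA), an interferon-gamma-activated site (GAS, searched as TTCNNNGAA) or an NF-kappaB (kappaB) site.
Cxcl9: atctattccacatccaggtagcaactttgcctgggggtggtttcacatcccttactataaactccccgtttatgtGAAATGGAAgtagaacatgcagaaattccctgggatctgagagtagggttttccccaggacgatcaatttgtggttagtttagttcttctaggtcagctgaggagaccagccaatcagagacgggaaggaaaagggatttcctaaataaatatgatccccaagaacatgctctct
Cxcl10: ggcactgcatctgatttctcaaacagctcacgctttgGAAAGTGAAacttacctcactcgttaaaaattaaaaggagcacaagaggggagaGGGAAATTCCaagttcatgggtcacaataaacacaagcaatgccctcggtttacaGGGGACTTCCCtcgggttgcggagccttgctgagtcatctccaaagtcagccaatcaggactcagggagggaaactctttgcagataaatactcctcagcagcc
Cxcl1: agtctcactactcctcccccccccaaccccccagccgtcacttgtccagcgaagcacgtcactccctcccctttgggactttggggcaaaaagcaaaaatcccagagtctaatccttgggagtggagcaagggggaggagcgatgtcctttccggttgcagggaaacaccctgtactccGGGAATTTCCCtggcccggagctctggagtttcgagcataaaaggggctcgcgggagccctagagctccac
Cxcl2: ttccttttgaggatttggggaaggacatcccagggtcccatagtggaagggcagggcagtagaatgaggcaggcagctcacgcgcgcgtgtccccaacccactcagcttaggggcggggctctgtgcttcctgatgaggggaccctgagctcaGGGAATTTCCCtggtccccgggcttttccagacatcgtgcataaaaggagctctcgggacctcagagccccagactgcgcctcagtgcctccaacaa
The window of Cxcl9 held an ISRE match, GAAATGGAA, at 175 to 167 bases before the start. The window of Cxcl10 held an ISRE match, GAAAGTGAA, at 213 to 205 bases, a kappaB match at 159 to 150 bases, and overlapping kappaB matches that together span 104 to 94 bases. The windows of Cxcl1 and Cxcl2 each held the same 10 bases, GGGAATTTCC, as a kappaB match, at 71 to 62 bases in Cxcl1 and at 97 to 88 bases in Cxcl2, and a match on the other strand overlapped each by all but 1 base. None of these 4 windows held a GAS match. Of the other members, Cxcl14 held an ISRE match at 172 to 164 bases and a GAS match at 191 to 183 bases, Cxcl12 and Cxcl13 held none of these letters, and Cxcl16 was not in the promoter table. Among 32851 RefSeq windows of the same length, 7.13% held an ISRE match, 7.02% a GAS match and 7.25% a kappaB match. A match describes the letters of the window only.

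The mature oligodendrocyte markers (6 genes, among them Mbp, which encodes a major myelin protein) had summed levels of 20.06 to 20.19 in EAE and 19.68 to 20.12 in OVA, and 0 of the 6 passed the limma test. Markers of astrocytes, endothelial cells, microglia, monocytes, neutrophils and T cells were also measured, and none of the listed markers was at 0 in every sample. Cell origin within the O4-selected cells was not measured for any chemokine, and in such bulk RNA fewer cells of a type and less RNA per cell cannot be told apart. OVA 3 stood apart by its neutrophil markers, with a summed level of 15.52 against 11.29 to 12.32 in the other 5 samples. It was also the highest OVA sample for 7 of the 8 chemokines, for 6 of 6 endothelial and 6 of 8 T cell markers. For the mature oligodendrocyte and the homeostatic microglia markers it was highest in 0 of 6 each. The share over all genes was not counted. Xist, transcribed from the inactive X chromosome of females, lay at 13.50 to 14.16 in EAE and 7.39 to 7.63 in OVA, and the Y-linked Ddx3y at 9.44 to 10.18 and 11.29 to 11.46. The balance of the sexes thus differed between the groups, and its effect and that of the immunisation cannot be told apart.

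Cxcl9, Cxcl10, Cxcl16 and Cxcl13 were higher in EAE, by 3.56, 2.87, 1.97 and 0.59 on the log2 scale, and 0 of the 8 members were called lower. The 4 higher calls (limma, adjusted p under 0.05) stand beside 312 of 18161 genes called higher in the whole table, or 1.72%, and the 0 lower calls beside 121 genes, or 0.666%. At an unadjusted limma p under 0.05, 5 members were higher and 2, Cxcl12 and Cxcl14, were lower, beside 9.17% and 7.15% of all tested genes. All 3 EAE samples lay above all 3 OVA samples for 5 members, as for 12.1% of all tested genes, and below them for 2 members, as for 10.8% of all tested genes. The median difference of the 8 members was 1.12, beside -0.002 over all tested genes, whose differences ran from -0.35 to 0.40 once the lowest and the highest 5% were set aside.

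**Figure D1:**
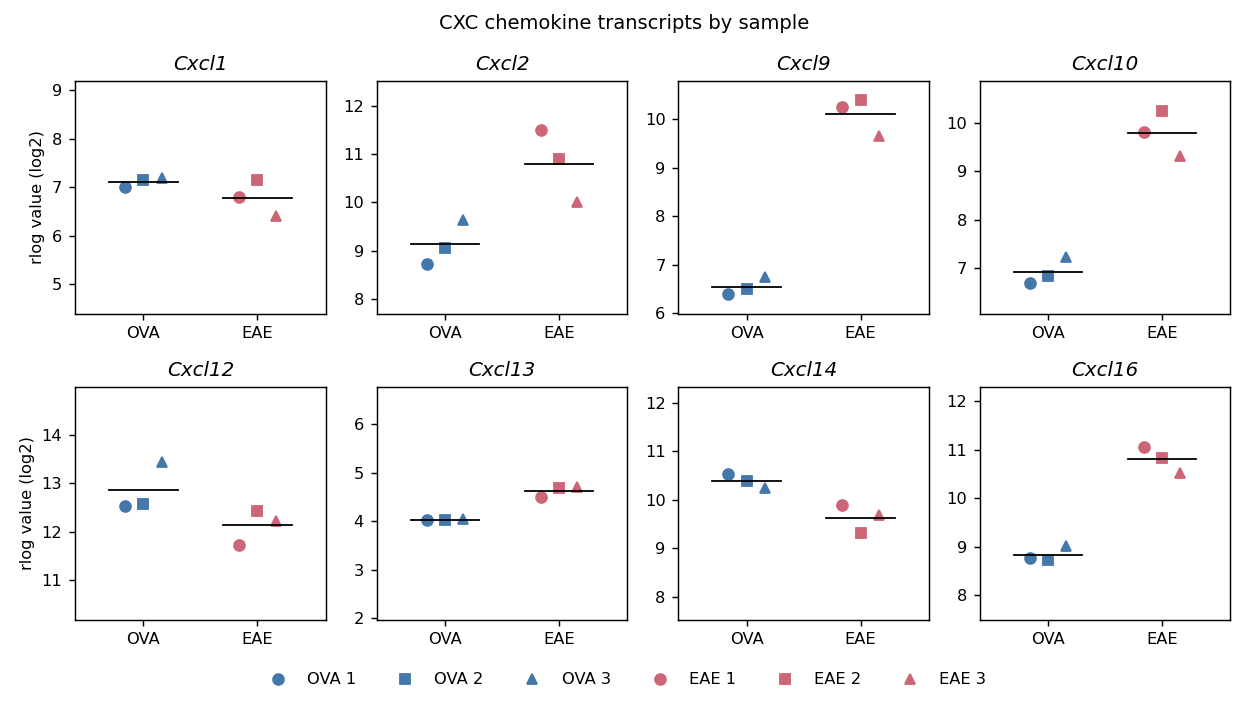
Regularised log2 value (vertical axis, each panel spanning the same number of log2 units) of the 8 CXC chemokine transcripts in the 3 OVA and 3 EAE samples, with the line at the group mean. Cxcl9, Cxcl10 and Cxcl16 are separated by at least 1.50 between the groups, whereas the samples of Cxcl1 overlap.

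Cxcl9 (ENSMUSG00000029417.9; GRCm38 chromosome 5, 92321347 to 92328079, minus strand) encodes an interferon-gamma-induced ligand of CXCR3. Its rlog values were 10.26, 10.39 and 9.66 in EAE 1, EAE 2 and EAE 3 and 6.39, 6.50 and 6.75 in OVA 1, OVA 2 and OVA 3. EAE 3 was the lowest EAE sample and OVA 3 the highest OVA sample, and 2.91 log2 units lay between them. The group means were 10.10 ± 0.39 in EAE and 6.55 ± 0.18 in OVA (SD, n = 3 each). The difference of 3.56 ± 0.20 (SE), or 11.8-fold, gave an adjusted p of 0.00056 (limma, Benjamini-Hochberg over all tested genes) and was the 6th highest of the 18161 differences.

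Cxcl10 (ENSMUSG00000034855.13; chromosome 5, 92346638 to 92348889, minus strand) encodes another interferon-induced ligand of CXCR3. The EAE samples had rlog values of 9.82, 10.24 and 9.31, and the OVA samples had 6.69, 6.84 and 7.23. As for Cxcl9, EAE 2 was the highest sample and EAE 3 the lowest of its group, and the groups were 2.09 log2 units apart. The means were 9.79 ± 0.46 in EAE and 6.92 ± 0.28 in OVA (SD, n = 3 each), a difference of 2.87 ± 0.24 (SE), or 7.33-fold, with a limma adjusted p of 0.0045. The whole of Cxcl10, 2252 bases, lies within Art3 on the opposite strand. Art3, which encodes a member of the ADP-ribosyltransferase family, had a difference of -0.31 and an adjusted p of 0.35. The libraries came from a stranded kit, but the sources used here do not say whether reads were counted by strand.

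The windows printed for Cxcl9 and Cxcl10 each hold an ISRE match, as does that of Cxcl14, whose difference was negative (-0.76). The part of these matches in the values was not tested. Cxcl9 and Cxcl10 were called higher with each of the 6 samples left out in turn. The limma adjusted p lay between 0.00032 and 0.015 for Cxcl9 and between 0.0013 and 0.041 for Cxcl10. The gene on the other side of Cxcl9, Sdad1, lay 10.9 kb away and had a difference of -0.03 (limma adjusted p = 0.88). On the far side of Cxcl10, 10.7 kb away, lies Cxcl11, which the annotation gives as a polymorphic pseudogene and whose values follow with the other ligands. The nearest tested protein-coding gene beyond it, Nup54 (a nuclear pore protein), had a difference of -0.07 (adjusted p = 0.70). Within a sample, the log2 value of Cxcl9 minus that of Cxcl10 was 0.44, 0.15 and 0.34 in the EAE samples and -0.30, -0.34 and -0.48 in the OVA samples. Cxcl9 was thus 0.68 higher relative to Cxcl10 in EAE, with no overlap of the groups. This pair, like the other pairs and marker lists compared within samples here, was chosen after the values were seen and is given as a description. With 3 samples a group, the smallest two-sided p of an exact permutation test is 0.1.

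Cxcl16 (ENSMUSG00000018920.11; chromosome 11, 70453983 to 70459984, minus strand) encodes the transmembrane ligand of CXCR6. Its rlog values were 11.06, 10.83 and 10.51 in the EAE samples and 8.76, 8.72 and 9.01 in the OVA samples. EAE 1 was highest and OVA 2 lowest, and the groups were 1.50 log2 units apart. The means were 10.80 ± 0.27 in EAE and 8.83 ± 0.16 in OVA (SD, n = 3 each), a difference of 1.97 ± 0.15 (SE), or 3.92-fold (limma adjusted p = 0.003). With each sample left out in turn the adjusted p ran from 0.00082 to 0.037. Cxcl16 overlaps Zmynd15, which encodes a zinc-finger protein, by 552 bases on the opposite strand, and Zmynd15 was higher in EAE by 0.83 ± 0.10 (SE, adjusted p = 0.013). Reads in the overlap cannot be assigned between them unless they were counted by strand.

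Markers of monocytes and macrophages were measured beside these genes. The summed level of 7 such markers was 13.45, 12.75 and 12.22 in the EAE samples and 10.92, 10.97 and 13 in the OVA samples. Of the 7, 1 was called higher, beside 1.72% of all tested genes. That marker was Arg1, which encodes arginase 1 (difference 4.86 ± 0.53 (SE), limma adjusted p = 0.0085). OVA 3, whose monocyte and macrophage level lay within the EAE range, had Cxcl9 2.91, Cxcl10 2.09 and Cxcl16 1.50 log2 units below the lowest EAE sample. After subtraction of the summed monocyte and macrophage level within each sample, the EAE samples remained above the OVA samples for Cxcl9 (by 2.38 in the means) and Cxcl10 (by 1.70), and the groups overlapped for Cxcl16 (0.80) and Cxcl2 (0.48). Single genes carried much of that level: Arg1 made up 49.6% of the linear sum in EAE 1, and Chil3, which encodes a chitinase-like protein of myeloid cells, 57.3% in OVA 3. With both genes left out of the sum, a choice made after the values were seen, the EAE samples lay above the OVA samples for all 4 chemokines, by 2.86 for Cxcl9, 2.18 for Cxcl10, 1.28 for Cxcl16 and 0.96 for Cxcl2. With Chil3 alone left out, the groups again overlapped for Cxcl16 (0.52) and Cxcl2 (0.20), and with Arg1 alone left out for Cxcl2 (1.05) but not for Cxcl16 (1.36). The place of OVA 3 against the EAE samples also changed with these choices. Without Chil3 its summed level was 11.77, below the EAE samples (11.79 to 13.19). Without Arg1 it was 12.99, above them (11.87 to 12.46), and without both genes 11.74, within their range (11.29 to 11.88). The homeostatic microglia markers had summed levels of 13.95 to 14.36 in EAE and 14.32 to 14.61 in OVA. Of these 6 markers, 2 were called lower, P2ry12 and Fcrls, beside 0.666% of all tested genes. After subtraction of that level the EAE samples lay above the OVA samples for Cxcl9, Cxcl10, Cxcl16 and Cxcl2, by 3.86, 3.17, 2.27 and 1.95. The microglia level was lower on average in EAE, so that subtracting it could only enlarge the mean differences (3.56, 2.87, 1.97 and 1.65 before). It is not a measure of the number of microglia. T cell markers were at 8.97 to 9.19 in EAE and 8.30 to 8.63 in OVA, and 4 of 8 were called higher, beside 1.72% of all tested genes. The 4 included Cd3e, which encodes a chain of the T cell receptor complex (0.84, limma adjusted p = 0.0045). The part of these cells in the chemokine differences was not tested.

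**Figure D2:**
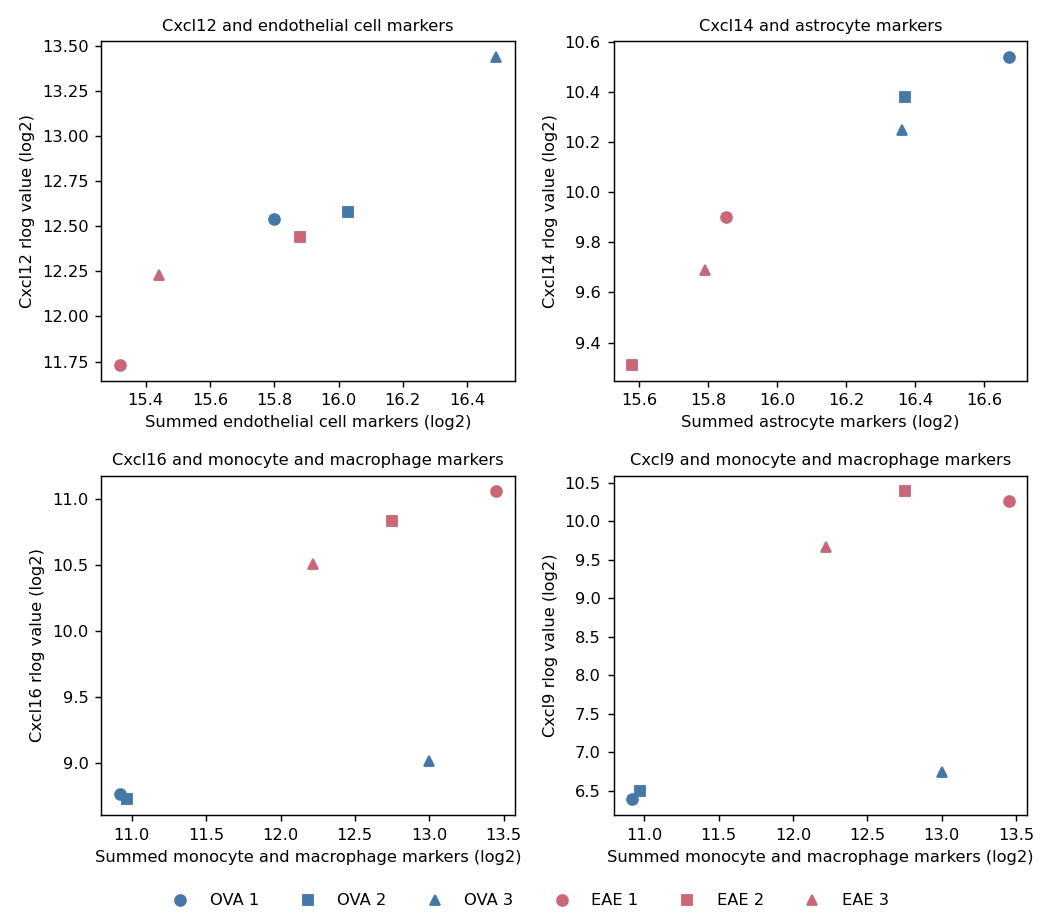
Regularised log2 value of a chemokine (vertical axis) against the summed level of a marker list (horizontal axis, log2) in each of the 6 samples, for Cxcl12 with endothelial, Cxcl14 with astrocyte, and Cxcl16 and Cxcl9 with monocyte and macrophage markers. OVA 3 sits at 13 on the monocyte and macrophage axis but at 9.01 for Cxcl16 and 6.75 for Cxcl9, with the other OVA samples. Chil3 alone made up 57.3% of that sum in OVA 3.

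Cxcl2 (ENSMUSG00000058427.10; chromosome 5, 90903871 to 90905938, plus strand) encodes a neutrophil attractant that binds CXCR2. Its rlog values were 11.49, 10.89 and 10.00 in the EAE samples and 8.72, 9.07 and 9.63 in the OVA samples. All EAE samples lay above all OVA samples, but EAE 3 and OVA 3 were only 0.37 apart, and EAE 1 exceeded EAE 3 by 2.8-fold. The means were 10.79 ± 0.75 in EAE and 9.14 ± 0.46 in OVA (SD, n = 3 each). The difference of 1.65 ± 0.37 (SE), or 3.14-fold, missed the threshold with a limma adjusted p of 0.073. It passed without EAE 3 (2.05, adjusted p = 0.027) and without OVA 3 (1.90, adjusted p = 0.026), and did not pass with any other sample left out. Of the 50-base runs in the Cxcl2 transcripts, 126 of 2159, or 5.84%, also occur in Cxcl3, so that part of the reads of these genes is uncertain.

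Cxcl1 (ENSMUSG00000029380.11; chromosome 5, 90891241 to 90893115, plus strand), which encodes another CXCR2 ligand, lies 10.8 kb before Cxcl2. The EAE samples had rlog values of 6.79, 7.14 and 6.40 and the OVA samples 7.00, 7.14 and 7.18. The groups overlapped, and the highest EAE sample, EAE 2, was level with OVA 2. The means were 6.78 ± 0.37 in EAE and 7.11 ± 0.09 in OVA (SD, n = 3 each), a difference of -0.33 ± 0.18 (SE) with a limma adjusted p of 0.42. It was -0.14 without EAE 3 and -0.51 without EAE 2, and did not pass in either case. Within samples, Cxcl2 minus Cxcl1 was 4.69, 3.75 and 3.61 in EAE and 1.72, 1.93 and 2.45 in OVA. The groups did not overlap in this measure, and the means differed by 1.98. The same kappaB letters stand in both printed windows.

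Cxcl3, the third ligand of CXCR2 at this locus, had rlog values of 6.88, 5.59 and 5.17 in EAE and 4.55, 4.56 and 4.61 in OVA. EAE 1 was well above the other EAE samples, as for Cxcl2, and the groups did not overlap. The difference was 1.31 ± 0.38 (SE) with a limma adjusted p of 0.14. Cxcl2 minus Cxcl3 within samples overlapped between the groups, with means 0.35 apart. The summed level of the neutrophil markers was 12.08, 12.04 and 11.29 in EAE and 11.75, 12.32 and 15.52 in OVA, with 0 of 6 passing the limma test.

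Cxcl12 (ENSMUSG00000061353.11; chromosome 6, 117168535 to 117181367, plus strand) encodes the ligand of CXCR4, which retains leukocytes and progenitor cells in their niches. Its rlog values were 11.73, 12.44 and 12.23 in the EAE samples and 12.54, 12.58 and 13.44 in the OVA samples. The EAE samples lay below the OVA samples, but EAE 2 and OVA 1 were only 0.10 apart, and OVA 3 stood above both other controls. The means were 12.13 ± 0.36 in EAE and 12.85 ± 0.51 in OVA (SD, n = 3 each), a difference of -0.72 ± 0.27 (SE) that missed the threshold (limma adjusted p = 0.24, unadjusted p = 0.031). Without OVA 3 the difference was -0.42 (adjusted p = 0.21). The summed level of 6 endothelial markers was 15.32, 15.88 and 15.44 in EAE and 15.80, 16.03 and 16.49 in OVA, and 0 of the 6 passed. Cxcl12 minus that level was -3.58, -3.45 and -3.21 in EAE and -3.27, -3.45 and -3.05 in OVA, so that the groups overlapped with means 0.15 apart. Cxcl12 minus the summed pericyte and smooth muscle level also overlapped (-0.28), whereas against the fibroblast level the EAE samples lay below the OVA samples (-0.59). The part of these cells in the Cxcl12 values was not tested.

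Cxcl14 (ENSMUSG00000021508.11; chromosome 13, 56288643 to 56296551, minus strand) had rlog values of 9.90, 9.31 and 9.69 in EAE and 10.54, 10.38 and 10.25 in OVA. Every EAE sample lay below every OVA sample, with 0.36 between EAE 1 and OVA 3. The means were 9.63 ± 0.30 in EAE and 10.39 ± 0.14 in OVA (SD, n = 3 each). The difference was -0.76 ± 0.15 (SE), or 1.69-fold lower, with an adjusted p of 0.052 that just missed the threshold in limma. It passed without OVA 3 (adjusted p = 0.026) and did not pass with any of the other 5 samples left out (0.064 to 0.17).

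The astrocyte markers were measured beside Cxcl14. Their summed level was 15.85, 15.58 and 15.79 in EAE and 16.67, 16.37 and 16.36 in OVA, with no overlap. Of the 6, 4 were called lower by limma, beside 0.666% of all tested genes. The 4 included Gja1, which encodes a gap junction protein (-0.91, adjusted p = 0.0073), and Slc1a2, which encodes a glutamate transporter (-0.94, adjusted p = 0.040). Slc1a2 had the highest value of the 6 in every sample and so weighed most in the summed level. Gfap, the intermediate filament that reactive astrocytes raise, was called higher (1.35, adjusted p = 0.0045). Cxcl14 minus the summed astrocyte level was -5.96, -6.26 and -6.10 in EAE and -6.13, -5.99 and -6.10 in OVA, and overlapped with means 0.03 apart. Against the oligodendrocyte precursor markers and the mature oligodendrocyte markers the EAE samples lay below the OVA samples, by 1.04 and 0.97. The summed precursor level was 13.37 to 13.64 in EAE and 12.95 to 13.50 in OVA. Both oligodendrocyte levels were higher on average in EAE, so that subtracting them could only enlarge the mean difference of Cxcl14 (-0.76 before). The part of astrocytes in the Cxcl14 values was not tested.

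Cxcl13 (ENSMUSG00000023078.6; chromosome 5, 95956951 to 95961068, plus strand) encodes the B cell attractant of lymphoid follicles. Its rlog values were 4.49, 4.68 and 4.71 in EAE and 4.02, 4.03 and 4.05 in OVA. The OVA samples lay within 0.03 of each other and 0.43 below the lowest EAE sample. The means were 4.62 ± 0.12 in EAE and 4.04 ± 0.01 in OVA (SD, n = 3 each), a difference of 0.59 ± 0.07 (SE), or 1.5-fold, with a limma adjusted p of 0.014. The call was lost without EAE 2 (adjusted p = 0.082), OVA 1 (0.051) or OVA 2 (0.070). At this level the rlog scale pulls samples together, and the number of reads behind the values is not known. B cell markers (4 genes, 0 called) were at 8.75 to 8.95 in EAE and 8.82, 8.89 and 10.23 in OVA.

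**Figure D3:**
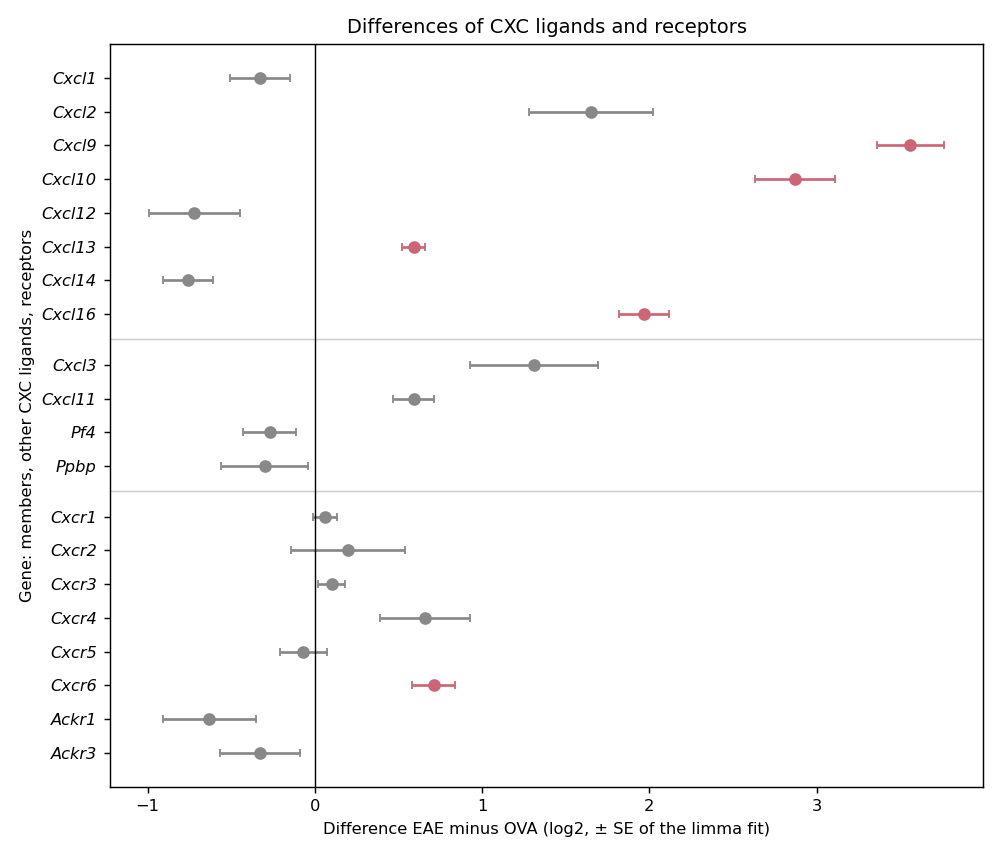
Difference of EAE minus OVA on the log2 scale (horizontal axis, bars are the SE of the limma fit) for the 8 members, 4 other tested CXC ligands and 8 receptors, with genes past an adjusted p of 0.05 in red. Cxcl9 lies at 3.56 and Cxcl10 at 2.87, and of the receptors only Cxcr6, at 0.71, is red.

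**Figure D4:**
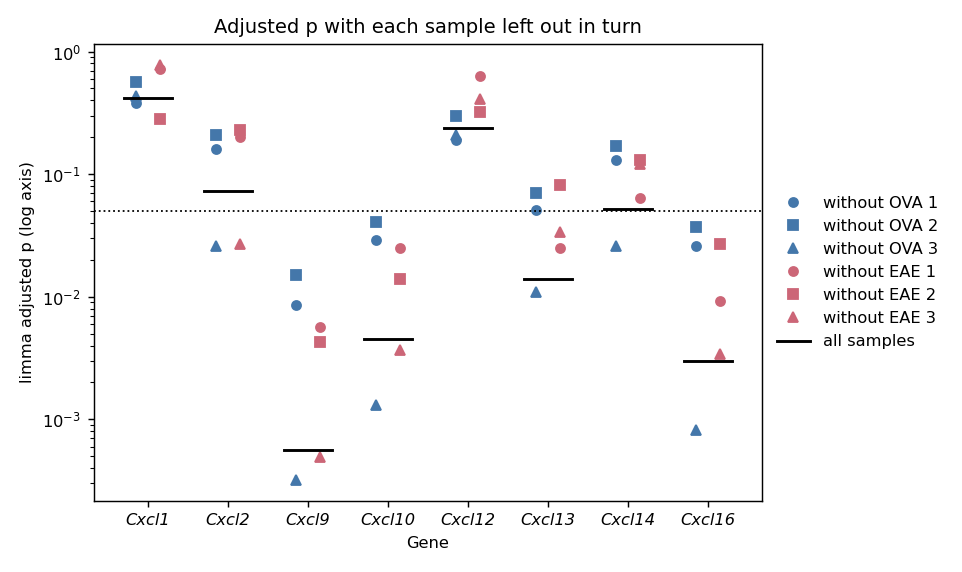
Adjusted p of each member (vertical log axis, from limma) with all samples (line) and with each of the 6 samples left out in turn (points), with the threshold of 0.05 dotted. Cxcl9, Cxcl10 and Cxcl16 stay under the threshold at every point, and their highest values are 0.015, 0.041 and 0.037.

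The order of the members' levels was compared per length, as the rlog value minus log2 of the exon length in kilobases. In OVA, Cxcl12 (mean 9.82) and Cxcl14 (9.52) were highest and their ranges overlapped. Cxcl2 (8.09), Cxcl16 (7.23), Cxcl1 (6.20), Cxcl10 (5.75), Cxcl9 (4.95) and Cxcl13 (3.84) followed, each with a range apart from the next. In EAE the order was Cxcl2 (9.74), Cxcl16 (9.20), Cxcl12 (9.10), Cxcl14 (8.76), Cxcl10 (8.62) and Cxcl9 (8.51), and each neighbouring pair among these 6 overlapped. Cxcl1 (5.87) and Cxcl13 (4.42) stood apart below them. Cxcl9 was thus under Cxcl1 in every OVA sample and above it in every EAE sample.

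**Figure D5:**
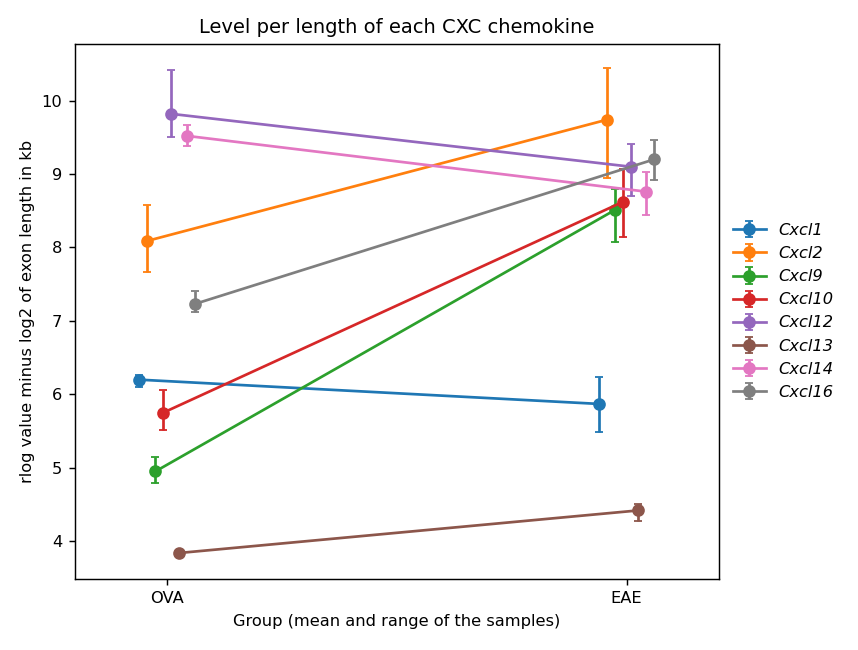
Level per length of each member (vertical axis, rlog value minus log2 of the exon length in kilobases) in OVA and EAE, as the mean with bars from the lowest to the highest of 3 samples. The OVA means run from 3.84 to 9.82, and in EAE 6 of the 8 means lie between 8.51 and 9.74.

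Of the 7 other CXC ligands looked up, 4 were tested and 0 were called by limma. At an unadjusted limma p under 0.05, 2 were higher, beside 9.17% of all tested genes. Cxcl11 is named for the other interferon-induced ligand of CXCR3 but is annotated as a polymorphic pseudogene, and its protein was not measured. It had rlog values of 5.38, 5.67 and 5.32 in EAE and 4.95, 4.69 and 4.97 in OVA. The groups did not overlap, and the difference of 0.59 ± 0.12 (SE) just missed the threshold (limma adjusted p = 0.055). The platelet chemokines Pf4 and Ppbp had differences of -0.27 and -0.30 with overlapping groups (adjusted p = 0.44 and 0.61). Cxcl5 and Cxcl17 had means under 3 and were not tested, and Cxcl15 was listed at 0 in every sample.

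Of the 8 receptors, 1 was called higher and 0 lower in limma, beside 1.72% and 0.666% of all tested genes. At an unadjusted limma p under 0.05, 2 receptors were higher and 0 lower, beside 9.17% and 7.15% of all tested genes. Cxcr6, the receptor of CXCL16 on T cells and natural killer T cells, had rlog values of 4.96, 5.50 and 5.19 in EAE and 4.42, 4.56 and 4.53 in OVA. The groups did not overlap, and the difference was 0.71 ± 0.13 (SE) with an adjusted p of 0.041. The call was lost without EAE 2, EAE 3, OVA 1 or OVA 2, where the adjusted p rose to as much as 0.14. Cxcl16 minus Cxcr6 was 1.26 higher in EAE, with no overlap.

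Cxcr4, the receptor of CXCL12, had rlog values of 10.60, 10.65 and 10.34 in EAE and 9.50, 9.55 and 10.57 in OVA. OVA 3, the sample with the high neutrophil markers, lay within the EAE range, about 1 log2 unit above the other controls. The difference was 0.66 ± 0.27 (SE, limma adjusted p = 0.29) with all samples, and 1.00 (adjusted p = 0.0036) without OVA 3. It did not pass with any other sample left out, where the adjusted p rose to as much as 0.62. Cxcr3, the receptor of CXCL9 and CXCL10, was at 4.60, 4.56 and 4.60 in EAE and 4.35, 4.48 and 4.62 in OVA, and the groups overlapped (0.10, adjusted p = 0.57). The neutrophil receptors Cxcr1 and Cxcr2 had differences of 0.06 and 0.20, and Cxcr5, the receptor of CXCL13, of -0.07 (adjusted p = 0.72, 0.83 and 0.84). The atypical receptors Ackr1 and Ackr3, which bind chemokines without G protein signalling, had differences of -0.63 and -0.33 (adjusted p = 0.33 and 0.53), and all 5 of these receptors overlapped between the groups.

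Genes of the pathways upstream of the ligands were counted beside them. Over all tested genes the median difference was -0.002, and limma called 1.72% higher and 0.666% lower. Of 10 genes of interferon gamma signalling, which is known to induce Cxcl9 and Cxcl10, 4 were called higher and 0 lower, with a median difference of 0.49. Among them were Stat2 (0.84, limma adjusted p = 0.038), which encodes a transcription factor of interferon receptors, Irf1 (1.30, 0.041), which encodes an interferon-induced transcription factor, and Ifng itself (0.44, 0.025). Ifng had rlog values of 4.32, 4.48 and 4.32 in EAE and 3.89, 4.00 and 3.90 in OVA, a level at which the rlog scale pulls samples together. Leaving out EAE 2 or OVA 2 ended all 4 calls, and leaving out EAE 1 or OVA 1 ended those of Stat2, Irf1 and Ifng. The call of Ifng was also lost without EAE 3, and held without OVA 3 only.

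Of 13 genes of IL-17, TNF and IL-1 signalling, which act on the CXCR2 ligands through NF-kappaB, 4 were called higher and 0 lower, with a median difference of 0.09. The called genes were the cytokines Tnf (1.42, limma adjusted p = 0.012), Il1a (1.68, 0.024), Il1b (1.47, 0.044) and Il17a (0.34, 0.021). Il17a lay close to the filter of 3, at 3.67, 3.76 and 3.64 in EAE and 3.35, 3.36 and 3.35 in OVA. There, as for Cxcl13, the rlog scale pulls samples together and the number of reads is not known. Tnf had rlog values of 9.14 to 9.71 in EAE and 7.95 to 8.29 in OVA, with no overlap. None of the receptors and NF-kappaB subunits of the list passed. Leaving out EAE 2 or OVA 2 ended all 4 calls, and leaving out EAE 1 or OVA 1 ended all but that of Tnf.

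Of 6 genes of the lymphotoxin and noncanonical NF-kappaB pathway, which is known to induce Cxcl13 in lymphoid tissue, 0 were called by limma and 4 had an unadjusted p under 0.05, all with positive differences, beside 9.17% of all tested genes that were higher at that threshold. The smallest p-values were those of Nfkb2, a subunit of noncanonical NF-kappaB (0.54, adjusted p = 0.086), and Lta, which encodes lymphotoxin alpha (0.27, adjusted p = 0.089). Of 6 genes that process chemokines or destroy their mRNAs, 0 were called by limma, with 1 at an unadjusted p under 0.05. That gene was Zc3h12a, which encodes the ribonuclease Regnase-1 (0.65, adjusted p = 0.089), followed by Adam17, a protease that sheds membrane proteins (0.14, adjusted p = 0.35). Of 5 genes of chemokine receptor signalling, 1 was called higher, Rgs1, a regulator of G protein signalling (0.66, adjusted p = 0.041), and among the fits with a sample left out this call held without OVA 3 only.

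The tested protein-coding genes most like each member were named by Pearson's r over the 6 samples, as a description, since samples of a group share their immunisation and any gene that differs between the groups correlates. Cxcl9 was most like Ly6i (0.999), Saa3 (0.998) and Calhm6 (0.998), and Cxcl10 was most like Calhm6 (0.998), Cxcl9 (0.996) and Dnaaf3 (0.996). Cxcl16 was most like Ly6i, Tmem106a and Prss43 (each 0.997). Cxcl2 was most like Crem (0.999), Irf2 (0.998) and Clec4d (0.998). Cxcl1 was most like Tpr and Ackr1 (each 0.984) and Adamtsl3 (0.982). Cxcl12 was most like Lef1 and Hmcn1 (each 0.999) and Gstm2 (0.997). Cxcl14 was most like Cdk15 (0.999), Cldn10 (0.991) and Entpd2 (0.990), and Cxcl13 was most like Bicc1 (0.998), Lyz1 (0.991) and Wfdc3 (0.990). Between 21 genes, for Cxcl1, and 328 genes, for Cxcl16, had an r above 0.95 with a member.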

How the data were processed

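RNA from 6 O4-selected samples was sequenced from stranded mRNA libraries, per the labels' protocols. The authors deposited a table of regularised log2 values. Tools listed in the submitters' processing notes, with no role or order, are DESeq2 1.24.0, Subread 1.6.1, STAR 2.6.1c, cutadapt 1.18 and bcl2fastq 2.17, with the build GRCm38. The gene annotation, strand setting and rlog options are not given in the sources used here. Of 55298 identifiers, 55117 (99.7%) matched a GENCODE M21 symbol without regard to version, 54550 with it. Genes with a mean of at least 3 were tested with limma 3.58.1 (R 4.3.3, intensity trend, two-sided, Benjamini-Hochberg over all 18161, threshold 0.05), after the code was checked on simulated data. Summed marker levels are log2 of summed linear values. The members and lists were chosen with earlier results of these data known. Named genes were all members, ligands and receptors, the called genes of each pathway list (or its 2 smallest p), except an item not reported here, up to 3 markers a list, the 3 best-correlated genes without predicted gene models, and adjoining genes. Replicate numbers follow the order of the samples. Alternatives changed the filter, trend, weights, centring and samples, and, added after the data were seen, the monocyte markers summed.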

Additional observations from a re-analysis of the deposited data

How the results depend on the processing

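Over the 14 alternative fits, 0 of the 111 member differences changed direction. Cxcl9, Cxcl10 and Cxcl16 were called in all 14 alternatives, Cxcl13 in 10 of 13 (it has no value with a mean of at least 5), Cxcl14 in 4 of 14, Cxcl2 in 3 of 14, and Cxcl1 and Cxcl12 in none. The count of members called lower, 0, became 1 (Cxcl14) with array quality weights (adjusted p = 0.0024), with weights by the number of mice (0.042) and with median centring (0.049), and ran from 0 to 1 with each sample left out. Cxcl2 was also called with array quality weights (adjusted p = 0.0019). Over all genes, array quality weights gave 2858 higher and 2233 lower calls against 312 and 121. They gave OVA 2 a weight of 8.85 against 0.275 for OVA 1 and 0.222 for OVA 3, and their estimation stopped before it converged. With a sample left out, higher calls over all genes ran from 24 (without EAE 2) to 850 (without OVA 3) and lower calls from 1 (without EAE 2) to 346 (without OVA 3). Cxcr6 was not called without a filter or without the intensity trend. With a mean of at least 5 it was not tested, because its mean lay under 5. The call of Rgs1 was also lost without a filter and without the trend, and the IL-17, TNF and IL-1 list had 2 higher calls, not 4, without the trend. Il17a and Ifng were not tested with a mean of at least 5, and their lists then had 3 higher calls each. Of the other CXC ligands, 1 was called with weights by the number of mice and with median centring. With array quality weights, higher calls rose to 2 of the other ligands, 2 of the receptors, 8 of the interferon gamma list and 5 of the lymphotoxin list, and 2 receptors were called lower. The Cxcl12 difference was -0.44 with array quality weights. No paired analysis was possible because the replicate numbers follow the order of the samples and pair nothing. The table holds no counts, so a limit set by depth could not be given.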
